A study of Mus musculus with 2 samples.

Results

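The HOX genes were analysed in RNA from mouse gonadal fat, which lies next to the gonads. They were taken as every gene whose symbol consists of Hox, a cluster letter from a to d, and a paralog number, which gave 39 of the 24091 genes listed. The Hoxa cluster contributed 11 genes, the Hoxb cluster 10, the Hoxc cluster 9, and the Hoxd cluster 9. The material was polyadenylated RNA from 2 libraries labelled as primary adipocytes of C57BL/6 mice. One library, called the sham library here, came from sham-irradiated mice (0 Gy) and 1 from mice that received radiation to the pelvis, given as 7.5 Gy and 5 days in wording that may mean a daily or a total dose. In both groups the fat was taken 2 months after radiation or sham treatment and dissociated with collagenase, and its floating fraction was kept in culture for 3 days. Both sample titles also contain PBS, without saying what received it. The sources used here do not give the age, sex, or number of mice behind each library, and with 1 library per condition no difference below has a replicate check.

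HOX genes encode transcription factors that bind DNA through a homeodomain and give cells their position along the head to tail axis of the embryo. In mammals they lie in 4 clusters, and genes at the same place in different clusters form paralog groups, numbered from 1 at the anterior end to 13 at the posterior end. Anterior groups are active early and towards the head, and posterior groups later and towards the tail, an ordering known as colinearity. Adult fibroblasts and fat precursors keep part of this pattern in culture, and fat depots are known to differ in the HOX genes they express.

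The homeobox is the part of a HOX gene that encodes the homeodomain. Its last 60 bases, which encode the DNA recognition helix and the end of the domain, are shown 5′ to 3′ for the 3 most abundant members, for the other genes of paralog group 8, and for Hoxc13. They are shown because the levels below rest on telling these similar genes apart. They were read from GENCODE M21 transcripts, and the capitals mark 18 bases of the recognition helix.
Hoxc8: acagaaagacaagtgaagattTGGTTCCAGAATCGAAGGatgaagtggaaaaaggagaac
Hoxb8: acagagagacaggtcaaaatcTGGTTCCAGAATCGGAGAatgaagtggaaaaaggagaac
Hoxd8: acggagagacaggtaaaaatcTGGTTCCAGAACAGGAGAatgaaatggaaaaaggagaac
Hoxc6: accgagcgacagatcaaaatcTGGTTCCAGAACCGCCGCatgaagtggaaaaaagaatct
Hoxa5: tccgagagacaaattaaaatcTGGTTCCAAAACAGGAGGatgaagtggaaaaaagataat
Hoxc13: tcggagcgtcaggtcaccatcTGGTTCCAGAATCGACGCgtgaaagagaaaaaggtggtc
Over the whole homeobox of 180 bases, Hoxc8 was identical to Hoxb8 at 80.0% of bases and to Hoxd8 at 73.3%, whereas Hoxc8 and Hoxc13, of the same cluster, were identical at 53.3%. Over all members, the median identity was 80.6% for the 42 pairs within a paralog group, from 67.2% to 93.9%, and 61.7% for the 172 pairs within a cluster. The sources used here do not say how fragments that match several genes were counted.

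Levels are given as FPKM, the fragments of a gene relative to its length in kilobases and to the library total, so levels of different genes can be set side by side. The deposited lengths differ from the exon bases in GENCODE M21 for some members. They were 2367 against 1868 bases for Hoxc8, 1716 against 2374 for Hoxc9, and 2156 against 2744 for Hoxd8. The order of levels therefore also depends on the length used. Total depth was 30600000 fragments in the sham library and 35000000 in the irradiated library. A gene of 1 kb without fragments therefore has an upper limit, set by 3 fragments, of 0.0981 FPKM in the sham library and 0.0858 FPKM in the irradiated library. An FPKM of 1 was used as the level at which a gene was counted as expressed. The label was compared with cell type markers in both libraries. Adipoq, the adipocyte hormone adiponectin, had an FPKM of 0.133 in the sham and 0.232 in the irradiated library. In both libraries 3 of 8 adipocyte markers reached 1. These were Fabp4, with 96.9 in both, Cebpa, with 13.4 and 14.4, and Pparg, with 4.59 and 4.69. Of 9 fibroblast and progenitor markers, 8 reached an FPKM of 1 in both libraries, as did 6 of 6 macrophage, 5 of 5 endothelial, and 4 of 4 smooth muscle markers. The HOX levels below are therefore those of the whole culture, not assigned to a cell type, and in such bulk RNA fewer cells of a type and less RNA per cell cannot be told apart.

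The cultures expressed 22 of the 39 HOX genes, meaning an FPKM of 1 or more in both libraries. This was 56.4% of HOX genes, and 45.3% of all genes listed (10907) met the same level. Expression was densest in the anterior and middle paralog groups. In groups 1 to 4, 8 of 12 genes were expressed, in groups 5 to 8, 10 of 11, and in groups 9 to 13, 4 of 16. The middle groups, 5 to 8, held 63.3% of the summed HOX FPKM in the sham library and 64.2% in the irradiated library. The anterior groups held 27.2% and 26.3%, and the posterior groups 9.51% and 9.50%. The order of these shares was the same in both libraries.

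**Figure D1:**
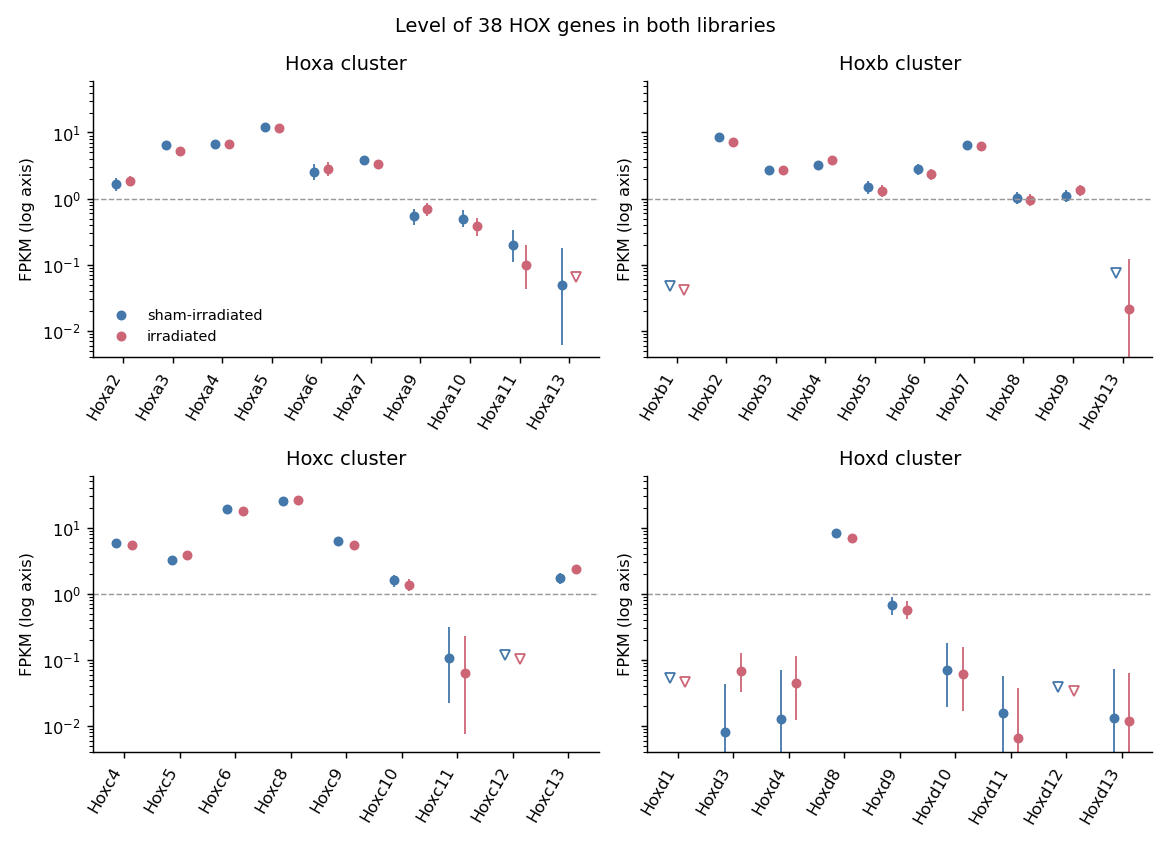
FPKM of 38 of the 39 HOX genes on a log axis, by cluster and in paralog order, in the sham (blue) and irradiated (red) library; lines are exact 95% counting intervals, some of which run below the axis, open triangles mark the limit set by 3 fragments for a gene without fragments, and the dashed line is an FPKM of 1. Levels in the Hoxa cluster drop below 1 from Hoxa9 on, Hoxc13 stands above 1 beside Hoxc11 and Hoxc12, and in the Hoxd cluster only Hoxd8 is above 1.

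The Hoxc cluster gave the largest share. It lies on chromosome 15 (mm10, 102921131 to 103036852) and held 46.3% of the summed HOX FPKM in the sham library and 48.0% in the irradiated library, with 7 of its 9 genes expressed. The Hoxa cluster on chromosome 6 (52155367 to 52260880) followed with 26.7% and 26.3%, from 7 of 11 genes. The Hoxb cluster on chromosome 11 (96194361 to 96368253) held 20.2% and 19.8%, from 7 of 10 genes. The Hoxd cluster on chromosome 2 (74668310 to 74765142) held 6.68% and 5.98%, from 1 of 9 genes. All coordinates are on the mm10 build. The gene spans of 6 members, as deposited, overlap the span of another member, among them Hoxa5, and without those 6 the Hoxc share was 58.3% and 60.2%. None of the 6 is a Hoxc gene, so leaving them out could only raise the Hoxc share.

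**Figure D2:**
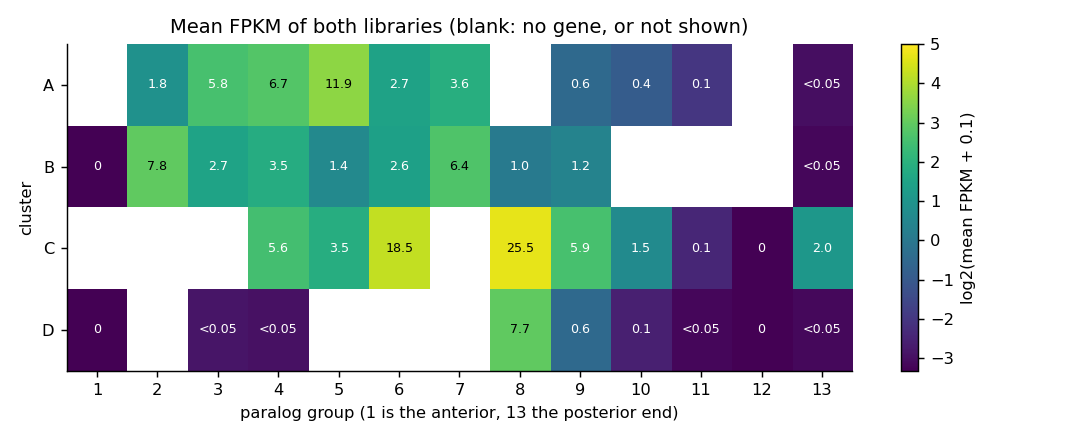
Mean FPKM of both libraries for each HOX gene, with clusters in rows and paralog groups in columns; the number in a cell is the mean FPKM, the colour its log2 after adding 0.1, and blank cells have no gene or one not shown. The highest cells are Hoxc8, Hoxc6, and Hoxa5, all in groups 5 to 8, and the cells of groups 11 and 12 are under 0.2 wherever a gene exists.

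An FPKM of 10 in both libraries was exceeded by 3 members. Hoxc8 (chromosome 15, 102990539 to 102994254), which patterns the thoracic skeleton and brachial motor neurons, had 24.8 in the sham library and 26.3 in the irradiated library, on 1798 and 2174 fragments. Hoxc6 (102998714 to 103011881), its neighbour and also a thoracic gene, had 19.1 and 18.0, on 960 and 1038 fragments. Hoxa5 (chromosome 6, 52201754 to 52204587), which is needed for normal lung development, had 12.0 and 11.8, on 690 and 772 fragments. Both libraries thus ranked these genes alike, and the counting intervals of each pair of consecutive genes from Hoxc8 through Hoxc6 and Hoxa5 to Hoxb2 were apart in both libraries. Hoxc8 and Hoxc6 together held 32.5% of the summed HOX FPKM in the sham library and 33.8% in the irradiated library. Against all 10907 genes expressed in both libraries these were not extreme levels, since 78.9% of those genes had a lower mean FPKM than Hoxc8 had. The corresponding share was 71.1% for Hoxc6 and 58.7% for Hoxa5.

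A further 7 members were at 5 or more in both libraries. Hoxb2, a regulator of hindbrain segments and facial motor neurons, had an FPKM of 8.53 and 7.06 in the sham and irradiated libraries. Hoxd8, the only gene of its cluster above 1, had 8.24 and 7.06. Hoxa4, a cervical patterning gene, had 6.72 and 6.63. These lay close together, and the counting intervals of Hoxb2 and Hoxd8, and of Hoxd8 and Hoxa4, overlapped in at least 1 library. Hoxb7, from the middle of the Hoxb cluster, had 6.58 and 6.31. Hoxa3, which is required for the thymus and parathyroid glands, had 6.40 and 5.21. Hoxc9, which defines thoracic motor neuron columns, had 6.31 and 5.44, and Hoxc4 had 5.84 and 5.44. From Hoxb7 to Hoxc4 no consecutive pair was separated by more than the range of both libraries.

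The other 12 expressed members had an FPKM under 5 in at least 1 library. Among them, in the Hoxa cluster, Hoxa7 had 3.87 in the sham and 3.31 in the irradiated library, Hoxa6 had 2.54 and 2.83, and Hoxa2, a regulator of the second pharyngeal arch, 1.64 and 1.86. In the Hoxb cluster, Hoxb4, known for expanding blood stem cells when overexpressed, had 3.19 and 3.79, Hoxb3 had 2.69 and 2.73, Hoxb6 had 2.77 and 2.35, Hoxb5 had 1.48 and 1.31, and Hoxb9 had 1.09 and 1.33. In the Hoxc cluster, Hoxc5 had 3.22 and 3.82, Hoxc13, a regulator of hair and nail keratins, 1.70 and 2.38, and Hoxc10, a gene known to be higher in subcutaneous than in visceral fat, 1.59 and 1.36. Among the 22 consecutive pairs in the order of mean level, 8 had ranges over both libraries that were apart, and 4 had counting intervals apart in both libraries. Below Hoxa7 no counting intervals of consecutive genes were apart in both, so the order of these lower members is not resolved.

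The level of 1 fell between close values. Hoxb9, the lowest of the expressed members, was just inside it. Hoxb8 reached it in the sham library only, so it was compared between libraries below but is not among the 22 expressed members. It had an FPKM of 1.03 in the sham library and 0.95 in the irradiated library, with counting intervals from 0.818 to 1.27 and from 0.763 to 1.17. Just outside, Hoxd9 had 0.668 and 0.574, Hoxa9, a leukaemia-associated gene, had 0.537 and 0.690, and Hoxa10, known for its role in the uterus, had 0.499 and 0.383. These 3 genes were detected on 42 to 78 fragments per library and are low rather than absent.

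The remaining 13 members were at an FPKM of 0.2 or below in both libraries. No fragment was listed in either library for Hoxb1, Hoxc12, Hoxd1, and Hoxd12. At these depths and gene lengths, 3 fragments would correspond to an FPKM of at most 0.117 for any of these 4 genes in either library, the value for Hoxc12 in the sham library. The others had between 0 and 14 fragments per library. Hoxa11, a gene of the uterus and forearm, had 14 and 8 fragments, and Hoxa13 and Hoxd13, which act in digits and the genital tubercle, had 2 and 0, and 1 and 1. Hoxb13, a prostate and tail gene, had 0 and 1. Of paralog groups 11 and 12 no gene was expressed, and of group 13 only Hoxc13 was.

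Levels along the clusters changed stepwise in places. Of the 35 pairs of neighbouring members, 8 differed at least 5-fold in both libraries, with a mean FPKM of at least 0.3 for the higher gene. In the Hoxd cluster, Hoxd8 was 12.3-fold above Hoxd9 in both libraries, and Hoxd4, on its other side, had 1 and 4 fragments against 543 and 532 on Hoxd8. In the Hoxb cluster, Hoxb7 was 6.42-fold above Hoxb8 in the sham and 6.64-fold in the irradiated library, and Hoxb2 had 425 and 402 fragments where its neighbour Hoxb1 had 0 and 0. In the Hoxa cluster, Hoxa7 was 7.21-fold above Hoxa9 in the sham and 4.80-fold in the irradiated library, so this pair is not among the 8. At the posterior end of the Hoxc cluster, Hoxc13 had 127 and 202 fragments, whereas Hoxc12 had 0 and 0 and Hoxc11 had 3 and 2. Hoxc13 was therefore the 1 expressed member that was separated by silent or nearly silent genes from the other expressed members of its cluster.

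Promoters are shown for 4 members at opposite ends of the range of level, because Hoxd8 and Hoxd4 are neighbours at 8.24 and 0.0127 FPKM in the sham library, and because Hoxa5 and Hoxd1 are expressed and silent with the same number of CpG sites. CpG is the dinucleotide at which mammalian DNA is methylated, and each is in capitals. Windows run from 250 bases before to 50 bases after the start, 5′ to 3′ on the gene's strand, from RefSeq on GRCm38.p6, the same build as mm10. They are Hoxa5 at chr6:52204538-52204837 on the minus strand, Hoxd1 at chr2:74762730-74763029, Hoxd8 at chr2:74704365-74704664, and Hoxd4 at chr2:74721728-74722027, the last 3 on the plus strand.
Hoxa5: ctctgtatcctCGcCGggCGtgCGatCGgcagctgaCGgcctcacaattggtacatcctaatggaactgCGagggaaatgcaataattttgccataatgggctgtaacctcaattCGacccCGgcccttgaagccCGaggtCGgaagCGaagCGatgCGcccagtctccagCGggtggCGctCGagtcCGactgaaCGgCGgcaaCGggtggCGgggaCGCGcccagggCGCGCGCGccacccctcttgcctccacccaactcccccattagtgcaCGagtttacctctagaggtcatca
Hoxd1: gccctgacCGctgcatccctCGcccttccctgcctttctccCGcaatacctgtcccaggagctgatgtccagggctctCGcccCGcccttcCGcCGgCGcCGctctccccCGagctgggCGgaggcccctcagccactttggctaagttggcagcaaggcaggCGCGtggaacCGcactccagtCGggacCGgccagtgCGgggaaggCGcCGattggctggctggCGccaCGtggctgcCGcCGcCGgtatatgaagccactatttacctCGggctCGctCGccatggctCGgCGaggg
Hoxd8: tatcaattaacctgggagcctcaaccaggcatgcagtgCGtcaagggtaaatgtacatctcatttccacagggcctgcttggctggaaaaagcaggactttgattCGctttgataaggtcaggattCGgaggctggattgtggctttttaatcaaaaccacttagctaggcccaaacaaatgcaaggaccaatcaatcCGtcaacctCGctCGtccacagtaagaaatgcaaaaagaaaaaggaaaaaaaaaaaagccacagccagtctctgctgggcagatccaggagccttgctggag
Hoxd4: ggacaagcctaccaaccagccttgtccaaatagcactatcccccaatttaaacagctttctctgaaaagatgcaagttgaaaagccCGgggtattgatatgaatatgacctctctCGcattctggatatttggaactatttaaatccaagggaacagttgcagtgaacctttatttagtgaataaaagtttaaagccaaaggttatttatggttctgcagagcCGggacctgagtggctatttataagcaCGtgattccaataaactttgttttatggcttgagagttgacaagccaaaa
Hoxa5 and Hoxd1 each had 29 CpG sites, Hoxd8 had 6, and Hoxd4 had 4. Sequences were found for 22 of the 39 members, in 24 windows. The median was 14.5 CpG sites for these and 7 over 32851 windows of 27025 mouse genes. It was 11.5 in the 8 windows of expressed members and 17.5 in the 16 windows of members that did not reach 1 in both libraries. The 8 windows cover 8 of the 22 expressed members, without Hoxc8 and Hoxc6, and the 16 cover 14 genes. These sets therefore do not stand for all expressed or all other members. On either strand, TATAAA was present in 0 of the 8 windows of expressed members, in 4 of the other 16, and in 13.6% of all windows. Among the 4 is Hoxb8, which was close to the level of 1, with 1.03 in the sham and 0.95 in the irradiated library. CCAAT was present in 62.5% of the windows in both sets of members and in 37.4% of all windows. TGATNNAT, a HOX and PBX composite motif, was present in 4 of the 24 windows of members and in 8.85% of all windows. None of these motifs is contained in another, and a match describes letters in the window, not binding.

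The irradiated and sham-irradiated libraries had closely similar HOX levels. Differences are given as irradiated minus sham-irradiated on the deposited log2(FPKM + 0.1) scale, which understates differences of genes with low FPKM. Of the 39 members, 23 reached an FPKM of 1 in either library and were compared, among 11253 genes that met this level. Of the 23, 0 differed by at least 1 in either direction, where 1.16% of the 11253 genes did, and 0 differed by at least 0.5, where 5.75% did. A background share of that size would by itself give few or no genes among 23. The differences ranged from -0.29 for Hoxa3 to 0.46 for Hoxc13. Their median was -0.08, with 8 members higher and 15 lower in the irradiated library. Over all 11253 genes the median was 0.02, with 6020 higher and 4947 lower. The median size of a difference was 0.17 for the members and 0.10 for all genes, but the members had fewer fragments, with a median of 255 and 327 against 888 and 1041. Within 0.1 of 0 lay 9 of the 23 members and 5630 of the 11253 genes, and within 0.25 of 0 lay 82.6% of the members and 81.3% of all genes. Across the 23 members, the libraries gave a Pearson's r of 0.987 and a Spearman's rho of 0.985, and across all genes compared 0.989 and 0.991, as a description over genes that are not independent and share the same 2 libraries.

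**Figure D3:**
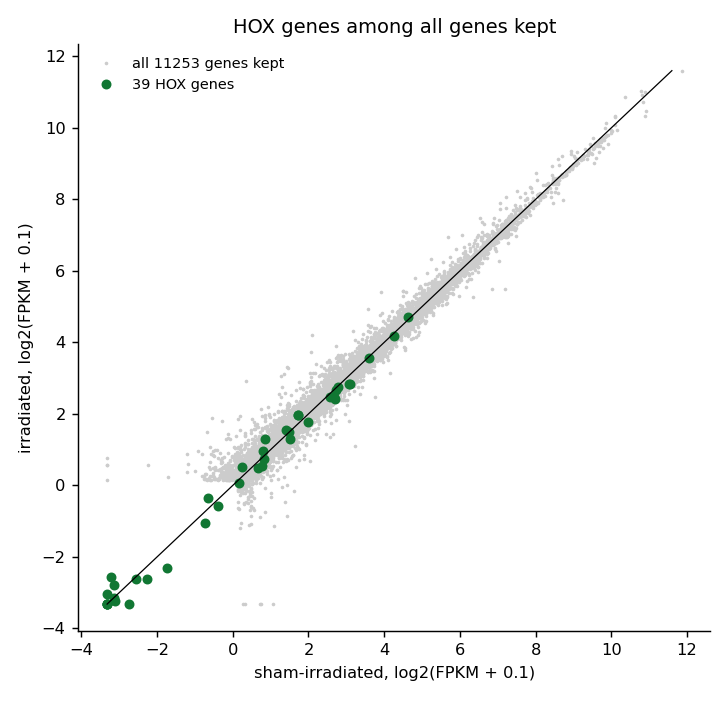
Deposited log2(FPKM + 0.1) in the sham library (x axis) and the irradiated library (y axis) for the 11253 genes that reached an FPKM of 1 in either library (grey) and for the 39 HOX genes (green); the line marks equal values. The HOX genes follow the line within 0.5 down to the members near an FPKM of 1, and the members at the lower left rest on few fragments.

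The precision of each difference was taken from the exact 95% interval of the ratio of fragments per library total (Clopper-Pearson), on a log2 scale and without a pseudocount. These intervals reflect counting error alone, since PCR copies are not separate molecules and the spread over mice or cultures was not measured. The interval lay above 0 for 3 of the 23 members, or 13%, where 23.8% of all genes compared did. It lay below 0 for 3 members, also 13%, where 17.4% of all genes did. Neither share exceeded the background. However, the members had fewer fragments than all genes compared, and fewer fragments give wider intervals, so the shares were not taken at like precision.

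Hoxc13 had 127 fragments in the sham library against 202 in the irradiated one, with an interval from 0.15 to 0.81. Hoxc5 had 268 and 364 fragments, with an interval from 0.02 to 0.48, and Hoxb4 had 250 and 340, with an interval from 0.01 to 0.49. These members were higher in the irradiated library, and the lower ends for Hoxc5 and Hoxb4 were close to 0. Once the median difference of all genes, 0.02, was subtracted, the intervals of Hoxc5 and Hoxb4 included 0. Hoxa3 had 497 and 463 fragments, with an interval from -0.48 to -0.11, Hoxb2 had 425 and 402, with an interval from -0.47 to -0.07, and Hoxd8 had 543 and 532, with an interval from -0.40 to -0.05. These members were lower in the irradiated library by a small amount. Of the 3 genes most abundant, Hoxc8 had an interval from -0.01 to 0.17, Hoxc6 from -0.21 to 0.05, and Hoxa5 from -0.18 to 0.12. At this depth no difference was detectable for these 3 genes. Below the level of 1, Hoxd3 had 1 and 10 fragments, with an interval from 0.32 to 8.57, too few to give its size.

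**Figure D4:**
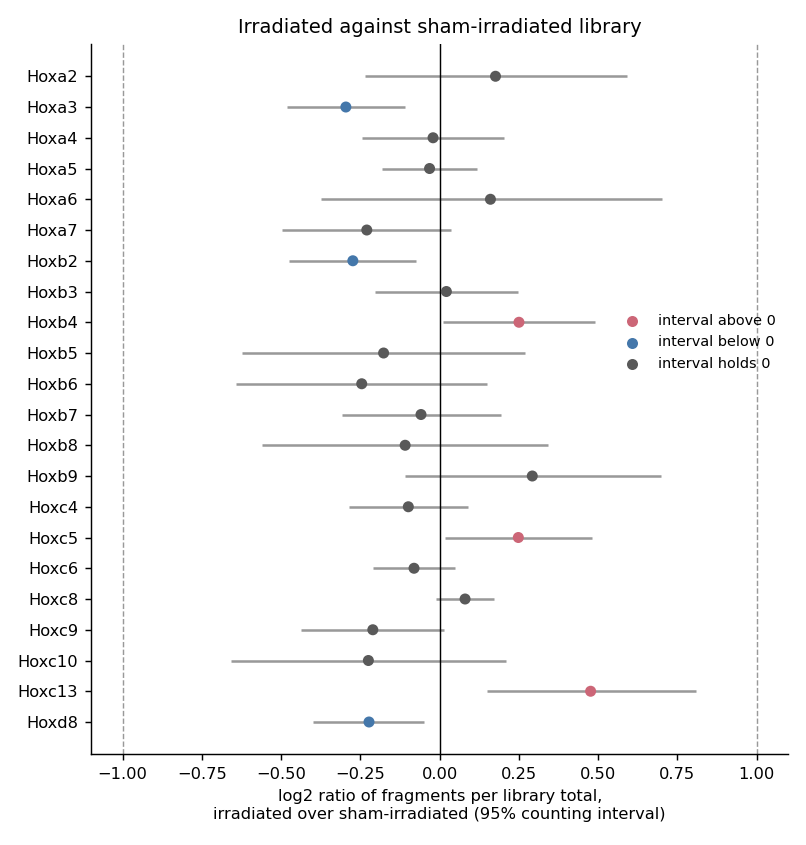
Log2 ratio of fragments per library total, irradiated over sham-irradiated, for 22 of the 23 HOX genes compared; lines are exact 95% counting intervals, the solid line marks no difference, and the dashed lines mark a difference of 1 in either direction. The intervals of Hoxb4, Hoxc5, and Hoxc13 lie above 0, those of Hoxa3, Hoxb2, and Hoxd8 below 0, and no interval reaches 1 or -1.

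Some of these values share exons with other annotated transcripts. In GENCODE M21 no member shared exon bases with another member, 6 shared some with another gene on the same strand (Hoxa2, Hoxa3, Hoxd3, Hoxd4, Hoxd10, and Hoxd11), and 8 with a gene on the opposite strand. The largest opposite overlaps were those of Hoxb3, with 63.9% of its exon bases, and Hoxb2, with 58.5%, both with the antisense gene Hoxb3os. The library protocol is labelled as stranded, but whether strand was used in counting is not stated. The values of Hoxb2 and Hoxb3 are uncertain for this reason, as in part are those of Hoxa11, with 24.8% of exon bases overlapped, Hoxa7, with 23.3%, Hoxa3, with 21.2%, and Hoxa4, with 16.0%. On the same strand, Hoxd3 shared 68.6% and Hoxd4 45.1% of exon bases with the gene Gm28230, so their low values are uncertain too.

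The clusters also contain noncoding RNAs. Among 18 genes with coordinates inside the clusters that are not HOX genes, 2 reached an FPKM of 1 in both libraries. The 18 include predicted genes not described as noncoding, and microRNA genes too short to be called low. For Mir10b, 3 fragments would correspond to an FPKM of 1.46 in the sham and 1.28 in the irradiated library. Mira, which lies between Hoxa6 and Hoxa7, had 10.5 in the sham and 9.41 in the irradiated library. Hotairm1, at the anterior end of the Hoxa cluster and expressed with the anterior Hoxa genes in blood cells, had 4.34 and 4.46. Hotair, transcribed from the Hoxc cluster and known for binding Polycomb complexes, had 1 and 0 fragments. Haglr, of the Hoxd cluster, had 0 and 1. Hoxaas2 had 25 and 10 fragments, an FPKM of 0.524 and 0.183, with a difference of -1.14, and Gm53, of the Hoxb cluster, had 4 and 19, an FPKM of 0.0719 and 0.298, with a difference of 1.21. Both were under 1 in both libraries and so were not among the genes compared. Of 10 genes that flank the clusters, Evx1, Evx2, and Ttll6 had no fragment in either library. Evx1 and Evx2 are homeobox genes at the posterior ends of the Hoxa and Hoxd clusters. Skap2, an adaptor protein gene beyond the Hoxa cluster, had an FPKM of 32.6 in both libraries, and Mtx2, a mitochondrial gene beyond the Hoxd cluster, had 29.6 and 29.3.

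HOX proteins bind DNA together with the TALE homeodomain proteins of the PBX, MEIS, and PKNOX families. Of 9 such genes, 8 were expressed in both libraries, at 3.61 or above in the sham library and 3.63 or above in the irradiated library. Among them, Pbx2 had an FPKM of 9.22 and 8.42, and Meis1 had 7.79 and 7.31. Pbx4 had 0.221 and 0.256. No cofactor differed by at least 1, and the median difference of the 8 was -0.08. Meis3 was the furthest apart, with 4.37 and 5.72 and an interval from 0.15 to 0.63.

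Most genes of the machinery that keeps HOX genes silent or active were expressed. Of 19 genes of the Polycomb complexes, which hold HOX genes silent, 18 were expressed in both libraries, and the methyltransferase Ezh2 had an FPKM of 17.7 and 17.4. Cbx7 had 0.390 and 0.298. The 12 genes of the Trithorax group and the H3K27 demethylases, which oppose Polycomb, were all expressed, among them Kmt2a, a known activator of HOX genes, with 6.77 and 6.22. None of either list differed by at least 1, with median differences of -0.015 for Polycomb and -0.09 for Trithorax. Of 13 genes of retinoic acid signalling, which induces anterior HOX genes in the embryo, 9 were expressed in both libraries. The synthesising enzyme Aldh1a2 had 60.9 and 48.1, with a difference of -0.34, and Aldh1a3 had 34.2 and 39.0, with a difference of 0.19. Rarg was the highest of the retinoic acid receptors, with 16.1 and 15.7. Cyp26b1, which degrades retinoic acid, had 1.39 and 2.20, the furthest apart of the list, with a difference of 0.62. Of 6 caudal and ParaHox genes, relatives of the HOX genes that act in the gut and tail, 0 were expressed, and 5 had no fragment in either library.

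Other genes tied to the position of fat depots were set beside the HOX genes. Of 27 such genes in 4 lists, 11 were expressed in both libraries. The gonadal and visceral list had 7 of its 10 genes expressed, led by Wt1, a factor of visceral fat and mesothelium, with an FPKM of 20.4 in the sham library and 18.7 in the irradiated library, and Nr2f2, with 16.5 and 15.6. Tcf21, a factor of visceral fat precursors, had 10.3 and 8.53, and Gata6 had 8.24 and 8.84. The subcutaneous list had 2 of its 6 genes expressed, En1, with 2.67 and 1.54, and Sfrp2, with 116.1 and 44.5. The subcutaneous markers Tbx15, Shox2, Irx3, and Irx5 were under 0.32 in both libraries. The brown fat list had 2 of 6 expressed, Ebf2, with 8.07 and 7.42, and Meox2, with 1.68 and 1.51, whereas Zic1, Lhx8, Pax3, and Pax7 had at most 2 fragments. None of the 5 genes of the hindlimb and pelvic list was expressed in either library. Among them were Pitx1, Tbx4, Isl1, and Tbx5, the last of which is a forelimb gene. The highest was Tbx4, at 0.110 and 0.175.

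**Figure D5:**
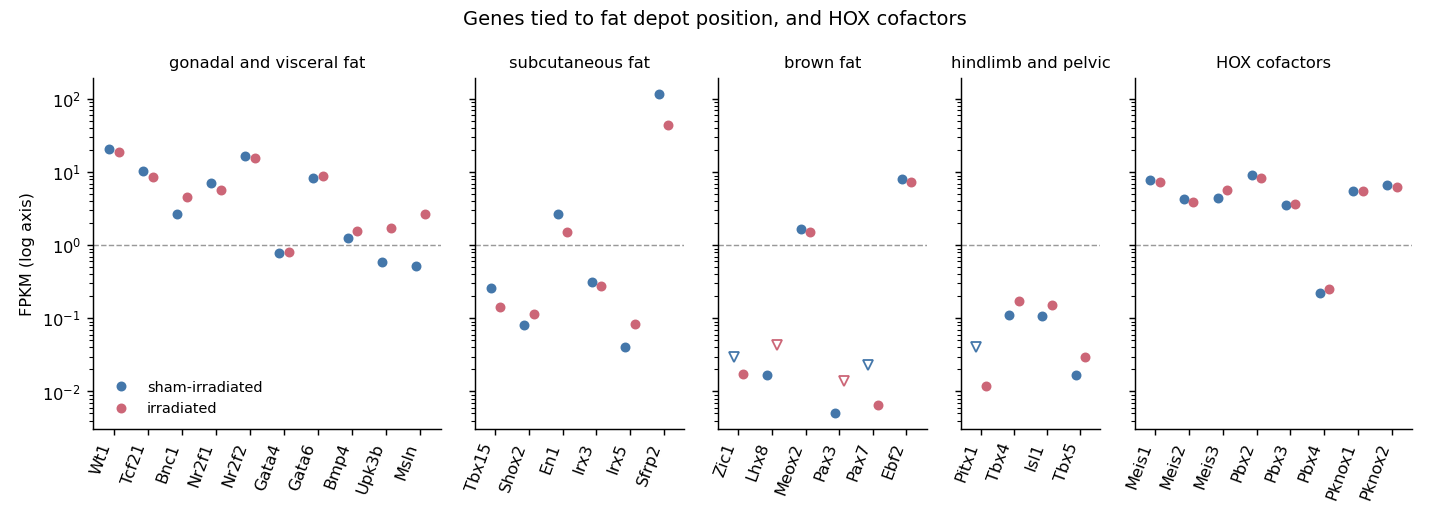
FPKM on a log axis of genes tied to fat depot position and of HOX cofactors in the sham (blue) and irradiated (red) library; open triangles mark the limit set by 3 fragments for a gene without fragments, and the dashed line is an FPKM of 1. Wt1 and Nr2f2 lead the gonadal and visceral list, and the genes of the hindlimb and pelvic list all lie below 1. Among genes above 1 in either library, Sfrp2, Upk3b, and Msln show the widest gaps between libraries.

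Of the 13 depot genes compared, 3 differed by at least 1, as did 1.16% of all genes compared. Msln, the mesothelial surface protein mesothelin, had an FPKM of 0.520 in the sham and 2.71 in the irradiated library, with a difference of 2.18, and Upk3b, also mesothelial, had 0.597 and 1.70, with a difference of 1.37. Sfrp2, a WNT modulator of fibroblasts, was lower by 1.38 on the log2 scale in the irradiated library, with an interval from -1.44 to -1.32. Of 7 mesothelial markers, 6 had an interval above 0, where 23.8% of all genes compared did. Wt1 had an interval below 0, from -0.22 to -0.04. Higher by at least 1 were 5, where 1.16% of all genes compared differed by that much in either direction. However, Msln and Upk3b, also counted above as depot genes, and Krt18 and Krt19 reached an FPKM of 1 in the irradiated library only. They entered the comparison through the library where they are higher, so these counts are no test. The summed FPKM of the 7 mesothelial markers was 28.8 in the sham and 38.1 in the irradiated library. Of 9 fibroblast markers, 6 had an interval below 0, where 17.4% of all genes compared did, and 1, Dpp4, had one above 0. Dcn had an FPKM of 548.6 and 552.5, and Lum 35.9 and 36.2. The summed FPKM of the 9 was 4358 and 3449, of which Col1a1 gave 1937 and 1428, and of 4 smooth muscle markers 905.8 and 1152. That of 6 macrophage markers was 556.0 and 579.2, of which Lyz2 gave 442.5 and 410.0, while 4 of the 6 had an interval above 0, among them Cd68, with an FPKM of 59.2 and 96.9, and C1qa, with 12.5 and 21.9. The part of these markers in the small HOX differences was not tested. No marker of epididymal epithelium (5 genes) or of ovary and oviduct (3 genes) was expressed, and Pax2, Crisp1, and Lcn5 had no fragment in either library. In both libraries, 0 of 3 lymphocyte and 0 of 4 skeletal muscle markers reached 1. However, the skeletal muscle marker Acta1 had an FPKM of 0.564 in the sham and 2.01 in the irradiated library, a difference of 1.67. It too entered the comparison through the library where it is higher. Myod1, Myf5, and Ckm, the other skeletal muscle markers, had no fragment in either library.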

How the data were processed

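RNA from 1 sham-irradiated and 1 irradiated culture was sequenced. The values deposited by the authors are log2(FPKM + 0.1) with 2 decimals, beside gene coordinates and lengths. The submitters' processing notes name mm10. The aligner, counting tool, annotation, and filters were not given in the sources used here. No further sample column was present.

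FPKM was recovered from the deposited values. Each library's total was the number for which FPKM times length gave whole fragments on genes with up to 20 fragments, within 0.12. This held for 3429 of 3430 in the sham library and 3431 of 3432 in the irradiated library, and 86.8% and 86.9% of fragments were on listed genes. The recovery was tested on simulated data. Fragments of abundant genes are approximate because of the rounding.

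Genes that reached an FPKM of 1 in either library were compared, and a difference of at least 1 on the log2(FPKM + 0.1) scale was counted. No p-value was computed. Ratio intervals were exact (Clopper-Pearson), and intervals of single levels exact Poisson, both at 95%, and a gene without fragments was given the limit of 3 fragments. The HOX genes and all gene lists were chosen with earlier results of these data known. Every HOX gene was counted, with values for those at an FPKM of 1 in either library and those nearest to it. From the other lists a selection was named. Not every gene of highest level, at 0, or past a difference of 1 is part of it. Values of a few genes and 1 sequence comparison are not reported here. Further genes of the lists were named after their values were seen. Alternatives varied the level, pseudocount, filter, scaling, interval, and overlapping members. Exons and transcripts were from GENCODE M21 and promoters from RefSeq. The tools were SciPy 1.17.1, pandas 2.3.3, numpy 2.4.6, and matplotlib 3.10.9 under Python 3.11.15.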

Additional observations from a re-analysis of the deposited data

How the results depend on the processing

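No paired analysis was possible because there was 1 library per condition, so neither could be left out. The count of 22 expressed HOX genes became 10 at an FPKM of at least 5 and was 18 to 26 under the other alternatives. The count of 0 members with a difference of at least 1 was also 0 under the 5 alternatives that could have raised it, among them a size of at least 0.5. A size of at least 2, an FPKM of at least 5, and a pseudocount of 1 could not raise it. The median difference lay between -0.10, with centring on all genes, and -0.03, as a mean. The 6 members with an interval off 0 became 3 with a 99% interval, Hoxc13, Hoxa3, and Hoxb2. With centring or scaling without the 100 most abundant genes they became 5, with Hoxb4 and Hoxc5 lost and Hoxc9 gained. The Hoxc share of summed HOX FPKM, 46.3% in the sham library and 48.0% in the irradiated one, was 48.3% and 50.2% as a share of fragments, and 58.3% and 60.2% without overlapping members. No overlapping member is a Hoxc gene, so leaving them out could only raise this share. The Hoxc cluster also ranked first by median FPKM. The 11 depot genes expressed became 7 at an FPKM of at least 5. All 69 recomputed differences of single members stayed within their counting intervals, but this was largely fixed in advance. Centring and scaling moved each member by 0.02 or less, too little to leave any of these intervals. A pseudocount of 1 only made the differences smaller in size. Depth limits the members with few fragments, 12 of which had 10 or fewer in both libraries.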
